A study of Mus musculus with 4 samples.

Results

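The cluster of miR-17 to miR-92a (the miR-17 cluster) and its paralogues miR-106a-363 and miR-106b-25 were followed in 4 mouse cell lines. Array rows were taken for every arm of the 13 miRNA names in these clusters (miR-17, miR-18a, miR-18b, miR-19a, miR-19b, miR-20a, miR-20b, miR-92a, miR-106a, miR-106b, miR-93, miR-25 and miR-363), which gave 27 of the 1023 mouse miRNAs on the array. Of these, 10 are main members, the arms usually kept as mature miRNA, namely mmu-miR-17-5p, mmu-miR-18a-5p, mmu-miR-19a-3p, mmu-miR-19b-3p, mmu-miR-20a-5p, mmu-miR-20b-5p, mmu-miR-92a-3p, mmu-miR-106b-5p, mmu-miR-93-5p and mmu-miR-25-3p. The prefix mmu, for mouse, is left out below. The lines were NSC (neural stem cells), OPC (oligodendrocyte precursor cells), NSCL61 (glioma-initiating cells derived from neural stem cells) and OPCL61 (glioma-initiating cells derived from oligodendrocyte precursors). Total RNA of each line, 100 ng, was hybridised to 1 single-colour Agilent miRNA array, and per the file headers the 4 arrays shared 1 slide and 1 scan. The labels give no genotype, allele, strain, passage or age for any line. As background, lines named NSCL61 and OPCL61 are known as p53-deficient cells carrying an activated form of HRas, but the labels do not say so, nor whether NSC and OPC share the p53 deficiency. Each group is thus 1 line on 1 array, and differences between single lines have no replicate check.

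The 3 clusters arose by duplication of an ancestral cluster, and each is transcribed as a precursor from which several hairpins are cut. A miRNA recognises its target mRNAs mainly through its seed, bases 2 to 8, and the clusters carry 4 seed families. The miR-17 family is known for repressing the cell-cycle inhibitor Cdkn1a and E2F transcription factors, and the miR-25 family, which includes miR-92a, for repressing Bcl2l11. The locus is a target of Myc, is amplified in B-cell lymphoma, and is known to support proliferation of neural and oligodendrocyte progenitors.

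In RefSeq (GRCm38.p6), the miR-17 cluster held 6 hairpins at chr14:115043671-115044506 on the plus strand, a span of 836 bases. miR-106a-363 held 6 hairpins at chrX:52741693-52742567 on the minus strand. miR-106b-25 held 3 hairpins at chr5:138165321-138165818 on the minus strand, inside the span of Mcm7 (chr5:138164583-138172111), a replicative helicase gene. The mature sequences of miR-19b-3p and miR-92a-3p are encoded on both chromosome 14 and chromosome X, so their signals cannot be assigned to 1 cluster. In summaries by cluster they are counted with the chromosome 14 cluster. Of the 27 member names, 25 matched a RefSeq mature sequence. The sequences below show how the families share a seed (capitals, bases 2 to 8) and differ in the rest. The miR-17 family holds the miR-17, miR-20, miR-93 and miR-106 names.
miR-17-5p: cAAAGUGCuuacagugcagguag
miR-106a-5p: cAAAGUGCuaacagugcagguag
miR-20a-5p: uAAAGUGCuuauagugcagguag
miR-20b-5p: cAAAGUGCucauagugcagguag
miR-93-5p: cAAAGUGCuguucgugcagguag
miR-106b-5p: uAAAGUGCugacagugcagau
The miR-18 family has another base inside the seed.
miR-18a-5p: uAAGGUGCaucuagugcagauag
miR-18b-5p: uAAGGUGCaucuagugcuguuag
The miR-19 family is unrelated to the others in its seed.
miR-19a-3p: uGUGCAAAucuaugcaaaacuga
miR-19b-3p: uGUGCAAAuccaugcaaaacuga
The miR-25 family, with miR-92a and miR-363, spans all 3 clusters.
miR-92a-3p: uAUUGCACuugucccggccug
miR-25-3p: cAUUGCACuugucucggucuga
miR-363-3p: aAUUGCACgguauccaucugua

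Because relatives differ by few bases, the probes bear on how far their signals can be told apart. The probes used for the levels are shown 5′ to 3′ as DNA, with a capital at each base that would be mismatched on the named relative.
miR-19a-3p probe on miR-19b-3p: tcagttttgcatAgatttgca
miR-19b-3p probe on miR-19a-3p: tcagttttgcatGgatttgc
miR-20a-5p probe on miR-20b-5p: ctacctgcactatAagcac
miR-20b-5p probe on miR-20a-5p: ctacctgcactatGagcact
miR-17-5p probe on miR-20a-5p: ctacctgcactGt
miR-92a-3p probe on miR-25-3p: cagGccgGgacaagtgc
miR-19a and miR-19b, and miR-20a and miR-20b, were separated by 1 mismatch, so part of each signal may come from its relative. The miR-20a-5p probe also has only 1 mismatch to miR-17-5p, which may likewise add to the miR-20a-5p signal. The miR-92a-3p probe has 2 mismatches to miR-25-3p. The 2 probes for miR-17-5p are 12 and 13 bases long, against 15 to 21 bases for the 18 probes of the other main members. They match miR-17-5p and miR-106a-5p equally, are annotated for both in the array design, and miR-106a-5p has no row of its own.

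Signal over background set what could be measured. A miRNA counted as well above background where at least 50% of the spots of a probe carried the scanner's flag. Between 139 (OPC) and 228 (NSCL61) of all 1023 miRNAs passed per line. Of the 27 members 9 passed in NSC, 8 in OPC, 11 in NSCL61 and 10 in OPCL61. Of the members, 8 were measured in all 4 lines, namely miR-19a-3p, miR-19b-3p, miR-20a-5p, miR-20b-5p, miR-92a-3p, miR-106b-5p, miR-93-5p and miR-25-3p. A further 3 were measured in some lines (miR-17-5p, miR-17-3p and miR-18a-5p) and 16 in none. Among the 17 arms outside the main members, only miR-17-3p was well above background in any line. No spot was saturated.

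Levels are given in scaled units: the processed signal after each array was divided by its 75th percentile over 182 probes well above background on all 4 arrays. The scaling was large. On the log2 scale it took −0.52 from NSC, −1.30 from OPC, 1.44 from NSCL61 and 0.38 from OPCL61, so that many directions depend on it, and unscaled values are printed beside the scaled ones for the members described. Errors are standard errors over the replicate spots of a probe within 1 array, which cover technical error only. A difference was counted as higher or lower at 2-fold or more and over 2 spot standard errors, which is a rule of size and not a test. A level is compared only with the same probe on another array, never with another miRNA's probe.

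**Figure D1:**
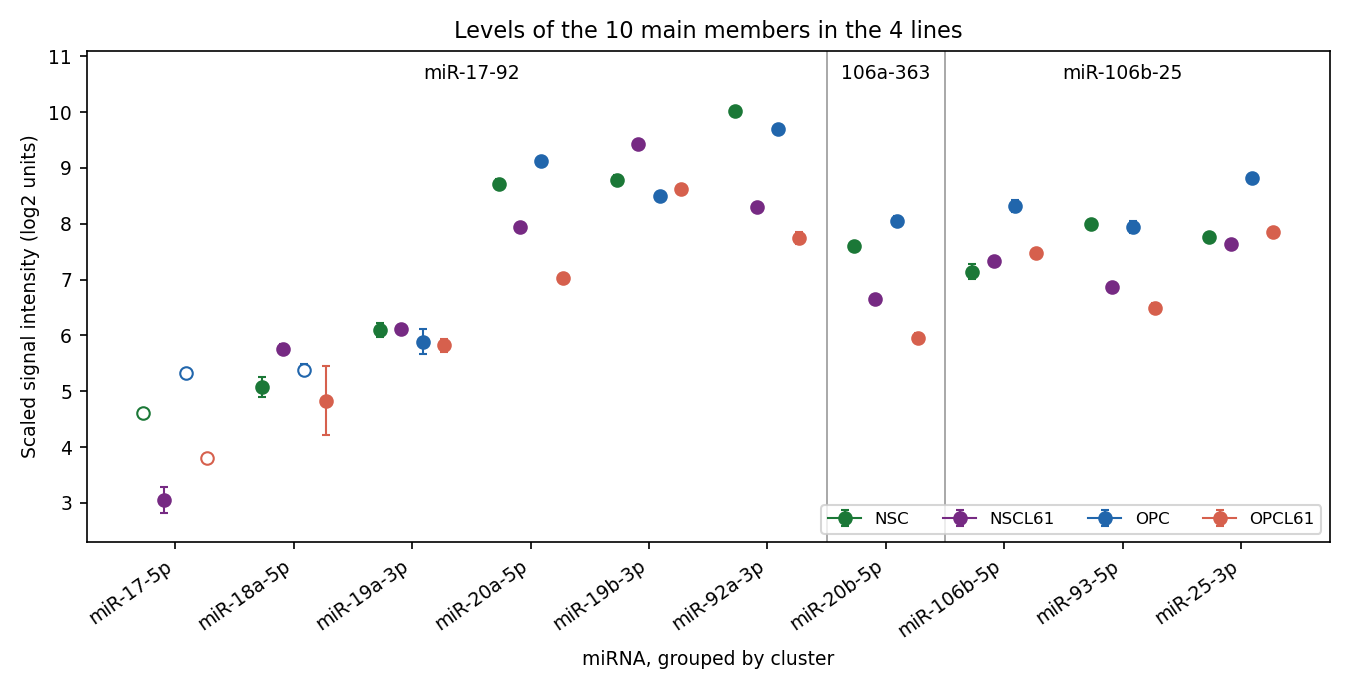
Scaled signal intensity (log2 units) of the 10 main members, grouped by cluster, with 1 point per line and bars giving the SD over replicate spots. Open points were not well above background and sit at or near the array's floor. miR-92a-3p, miR-93-5p, miR-20a-5p and miR-20b-5p lie lower in NSCL61 and OPCL61 than in NSC and OPC, while miR-19a-3p stays within 56.8 to 69.3 units; heights of different miRNAs are not comparable.

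The miR-19 family had the highest changes of the members in OPCL61 against OPC, and in NSCL61 against NSC miR-19b-3p lay just below miR-18a-5p at the top. miR-19b-3p was at 441 scaled units in NSC, 361 in OPC, 692 in NSCL61 and 393 in OPCL61. NSCL61 was the highest line, and the other 3 lay close together. The log2 change was 0.65 ± 0.02 (spot SE) for NSCL61 against NSC and 0.12 ± 0.03 for OPCL61 against OPC, neither reaching 2-fold. Without scaling miR-19b-3p was at 308, 146, 1877 and 511 units in the same order of lines, which is 6.09-fold and 3.49-fold higher in the glioma-initiating lines. miR-19a-3p, whose seed is identical, was at 68.5 scaled units in NSC, 59.3 in OPC, 69.3 in NSCL61 and 56.8 in OPCL61. With the main scaling its levels were nearly flat, with changes of 0.017 ± 0.031 and −0.063 ± 0.057. This flatness depended on the processing. The first change became 0.65 with quantile normalization and −0.50 with normexp background correction, and the second became −0.64 with normexp. The OPC level of miR-19a-3p also lay near that array's floor of 40.1 units. Its unscaled signals of 47.9, 24.1, 188 and 73.8 units corresponded to 3.92-fold and 3.07-fold higher values.

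The miR-17 family did not move as 1 group. miR-20a-5p, from the chromosome 14 cluster, was at 419 scaled units in NSC, 557 in OPC, 246 in NSCL61 and 129.9 in OPCL61. Both glioma-initiating lines were below both precursor lines, with log2 changes of −0.77 ± 0.02 for NSCL61 against NSC and −2.10 ± 0.02 (4.29-fold) for OPCL61 against OPC. miR-20b-5p, from the X-linked cluster, followed at 194, 265, 101 and 62.3 scaled units. Its fall was 1.92-fold in the NSC lineage and 4.25-fold in the OPC lineage, so that the changes of miR-20a and miR-20b differed by only 0.17 ± 0.03 and −0.01 ± 0.04. Since their probes differ from each other's target by 1 base, how much of this likeness is shared signal was not tested. Without scaling, miR-20a-5p was at 293, 226, 666 and 169 units and miR-20b-5p at 136, 107, 274 and 80.9. Unscaled, both were thus over 2-fold higher in NSCL61 than in NSC, at 2.27-fold and 2.02-fold, and slightly lower in OPCL61 than in OPC, at 1.34-fold and 1.33-fold.

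The 2 miR-106b-25 members of this family parted. miR-93-5p was at 257 scaled units in NSC, 246 in OPC, 117 in NSCL61 and 90.4 in OPCL61. On this probe the 2 precursor lines were alike and the 2 glioma-initiating lines lower, by 2.19-fold and 2.72-fold. On the other miR-93-5p probe OPC lay above NSC by 0.48 in log2. miR-106b-5p, cut from the same precursor and with the same seed, was at 140.9 scaled units in NSC, 319 in OPC, 162 in NSCL61 and 177 in OPCL61. Only OPC stood out, 2.26-fold above NSC, and neither glioma-initiating line differed from its precursor by 2-fold (0.20 ± 0.03 and −0.85 ± 0.03). Unscaled, miR-93-5p read 179, 99.8, 318 and 117 units and miR-106b-5p read 98.6, 129.5, 439 and 230.3, so that without scaling neither was lower in a glioma-initiating line than in its precursor.

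The 2 measured members of the miR-25 family also differed. miR-92a-3p, encoded on chromosomes 14 and X, was at 1034 scaled units in NSC, 830.5 in OPC, 316 in NSCL61 and 215 in OPCL61. It was lower in both glioma-initiating lines, 3.27-fold (−1.71 ± 0.02) and 3.85-fold (−1.95 ± 0.03). This fall was not seen in the unscaled signals of 723, 337, 857 and 280.0 units, where the changes were 0.25 and −0.27. miR-25-3p, its seed relative on chromosome 5, was at 217, 451.4, 198 and 231 scaled units. OPC was again the highest line, 2.08-fold above NSC, and NSCL61 was close to NSC (−0.13 ± 0.02) while OPCL61 lay 1.95-fold below OPC. Unscaled it read 152, 183, 538 and 300.2 units, higher in both glioma-initiating lines. miR-363-3p, the member of this family in the X-linked cluster, was not well above background in any line.

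The remaining members were dim. miR-18a-5p was at 33.7 scaled units in NSC, 54.3 in NSCL61 and 28.5 in OPCL61, and was not well above background in OPC, where its reading was 41.8. It changed by 0.69 ± 0.05 in NSCL61 against NSC, by 2.64 without scaling, by 0.41 with the mean over probes and, in the opposite direction, by −0.40 with normexp background correction. No bound could be set for OPCL61 against OPC, because the floor of the OPC array lay above the OPCL61 level. miR-17-5p was well above background only in NSCL61, at 8.29 scaled units, again with no bound possible against NSC. Without scaling it read 22.5 units in NSCL61, at least 1.26-fold above NSC. Its short probes match fewer bases than those of the other main members, and their part in the low signal was not tested. miR-17-3p, the other arm of the miR-17 hairpin, was measured in NSCL61 at 30.3 and in OPCL61 at 15.0 scaled units. It was at least 1.16-fold higher in NSCL61 than in NSC, and at least 4.49-fold without scaling. With normexp or with the mean over probes no such bound could be set. miR-17-3p was 2.02-fold lower in OPCL61 than in NSCL61, and 4.21-fold lower without scaling. This fall rests on 1 probe, of which 58.8% of the spots passed the flag in OPCL61. It was under 2-fold with the mean over probes (−0.40) or with outlier spots kept (−0.95) and turned to 0.082 with normexp. None of the 10 seed relatives outside the clusters that are on the array was well above background in any line; these were miR-92b-3p, miR-32-5p and miR-367-3p, which share the miR-25 seed, and 7 members of the miR-290 and miR-302 groups of embryonic stem cells, whose related core is shifted by a base.

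Differences between members do not depend on the factor by which an array is scaled. The change of miR-19b-3p exceeded that of miR-92a-3p by 2.36 ± 0.03 in log2 for NSCL61 against NSC and by 2.07 ± 0.04 for OPCL61 against OPC. The ratio of miR-19b-3p to miR-92a-3p was thus 5.14-fold and 4.20-fold higher in the glioma-initiating lines. Over the 4 pairings of their probes the gap ran from 2.36 to 2.56 and from 2.07 to 2.24, and over all processing alternatives from 2.15 to 2.46 and from 1.67 to 2.20. Between the 2 precursor lines the same gap was 0.03 ± 0.03, and between the 2 glioma-initiating lines −0.26 ± 0.04. miR-19b-3p also moved above miR-20a-5p, by 1.42 ± 0.03 and 2.22 ± 0.04. In the miR-106b-25 cluster, miR-106b-5p exceeded miR-93-5p by 1.33 ± 0.04 and 0.60 ± 0.05. Members with 1 seed also differed, miR-25-3p exceeding miR-92a-3p by 1.58 ± 0.02 and 0.98 ± 0.03. The 2 probes of a member disagreed in their changes by a median of 0.11 in the NSCL61 comparison and 0.07 in the OPCL61 comparison, with a largest disagreement of 0.27 and 0.10. The gaps named for these 2 comparisons are larger than that. Between the 2 precursor lines the gap of 0.03 had no fixed sign. It ran from −0.05 to 0.10 over the probe pairings and from −0.25 to 0.14 over the processing alternatives. Between the 2 glioma-initiating lines the gap of −0.26 stayed negative, at −0.38 to −0.18 and −0.34 to −0.22. The largest probe disagreements in these comparisons, 0.54 and 0.38, were those of miR-93-5p and miR-18a-5p.

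Probe composition moved with these differences and its part in them was not tested. Across the members, the GC content of the probe and the log2 change had a Pearson correlation of −0.68 (9 members) for NSCL61 against NSC and of −0.64 (8 members) for OPCL61 against OPC, with Spearman correlations of −0.68 and −0.38. Across all miRNAs measured in both lines the Pearson correlation was −0.25 (153 miRNAs) and 0.17 (131 miRNAs). The miR-19a and miR-19b probes hold 33.3% and 40% G and C and the miR-92a-3p probe 70.6%. These points share arrays, and several members share a precursor.

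For the question of how glioma-initiating cells differ from the cells they came from, 9 members could be set side by side in NSCL61 and NSC. In order of change they were miR-18a-5p, miR-19b-3p, miR-106b-5p, miR-19a-3p, miR-25-3p, miR-20a-5p, miR-20b-5p, miR-93-5p and miR-92a-3p. miR-18a-5p and miR-19b-3p at the top did not differ beyond their spot error. Of the 11 members measured in either line, 0 were higher and 2 were lower (miR-92a-3p and miR-93-5p), where 11.8% of all 245 miRNAs measured were higher and 38.8% were lower. The median change over the 9 members was −0.13, against −1.03 over all 153 miRNAs measured in both lines, and 7 of the 9 lay above that median. Unscaled, 8 of 11 were higher and 0 were lower, against 49% and 6.94% of all miRNAs, and the median was 1.83. The direction for the clusters as a whole therefore depends on the scaling. A factor per array cannot change the members' place among other miRNAs, but other settings can. With quantile normalization 5 of the 9 lay above the median, and 8 did with normexp and with the mean over probes.

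In the oligodendrocyte lineage the members lay at the other side of the array's median. Of 10 members measured in OPCL61 or OPC, 0 were higher and 4 were lower (miR-92a-3p, miR-93-5p and both miR-20 members), where 14.5% of all miRNAs measured were higher and 20.6% were lower. The median change over the 8 members measured in both lines was −1.21, against −0.33 over all 131, and 2 of the 8 (the miR-19 members) lay above the latter. In order of change they ran miR-19b-3p, miR-19a-3p, miR-106b-5p, miR-25-3p, miR-93-5p, miR-92a-3p, miR-20b-5p and miR-20a-5p, the last 2 not differing beyond their spot error. Without scaling 3 of 10 were higher (miR-18a-5p, miR-19a-3p and miR-19b-3p) and 0 lower, against 55.6% and 1.87% of all miRNAs, and the median of the 8 members was 0.47.

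**Figure D2:**
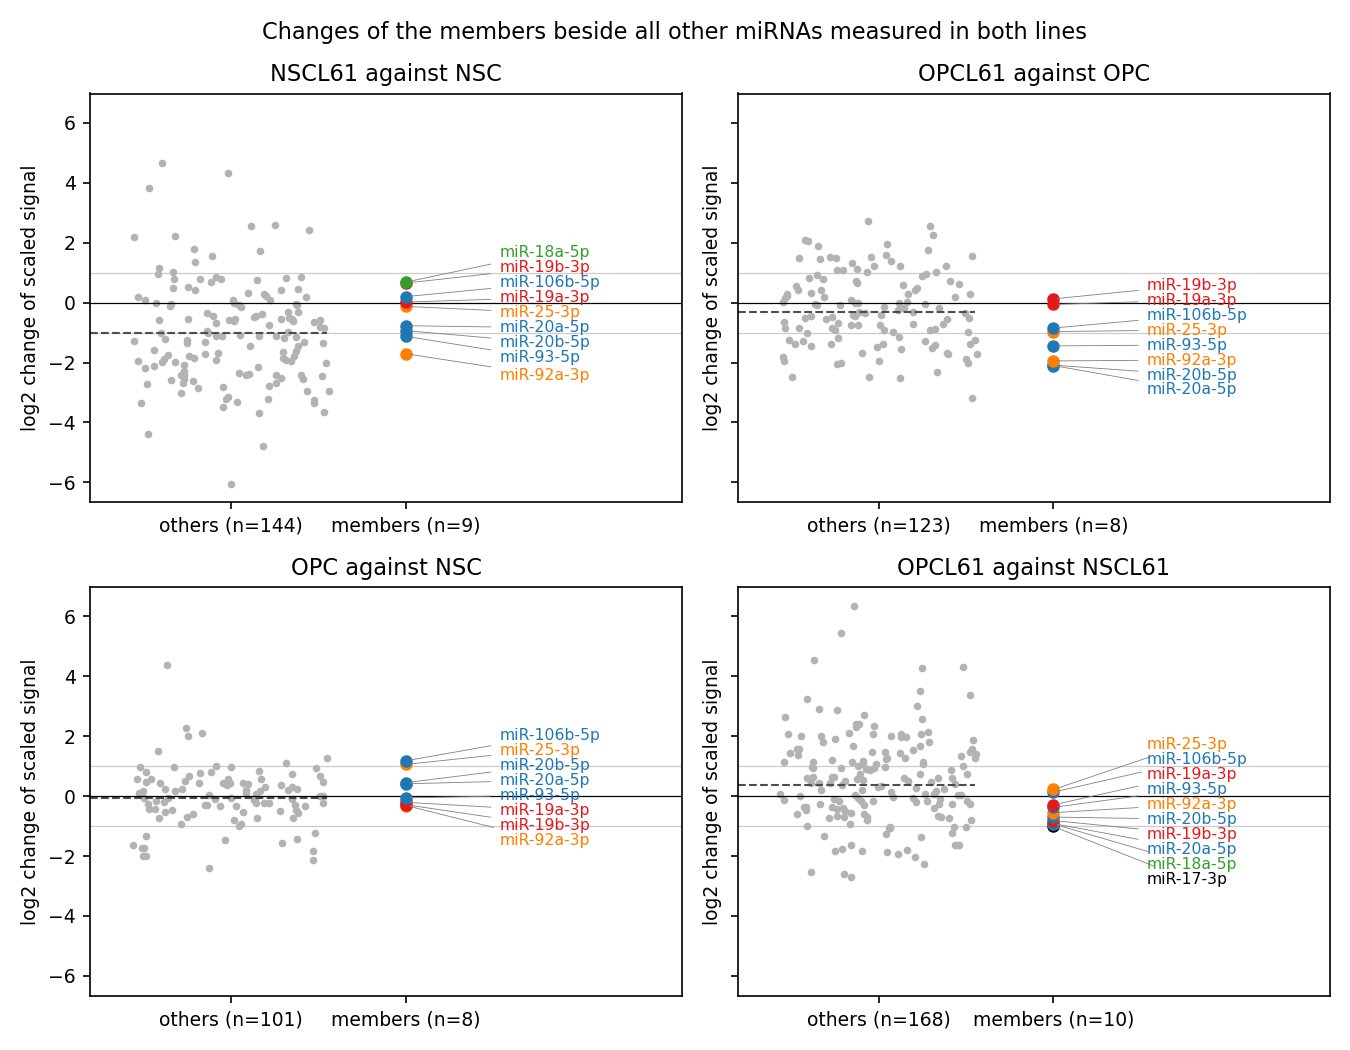
Log2 change of scaled signal for the members measured in both lines (coloured by seed family, bars the spot SE) beside all other miRNAs measured in both lines (grey), with a dashed line at the median of all miRNAs and thin lines at 2-fold. In NSCL61 against NSC 7 of 9 members lie above the dashed line, in OPCL61 against OPC 2 of 8.

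Both lineages ordered the members much alike. Over the 8 members measured in all 4 lines, the changes in the NSC and OPC lineages had a Pearson correlation of 0.85 and a Spearman correlation of 0.76. Over all 105 miRNAs measured in all 4 lines these were 0.40 and 0.33. The values are descriptions, since members share precursors and each lineage is 1 pair of arrays. In each of the 8 the change was lower in the OPC lineage, by 0.080 ± 0.065 for miR-19a-3p at the least and by 1.33 ± 0.03 for miR-20a-5p at the most, a difference that was not tested.

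**Figure D3:**
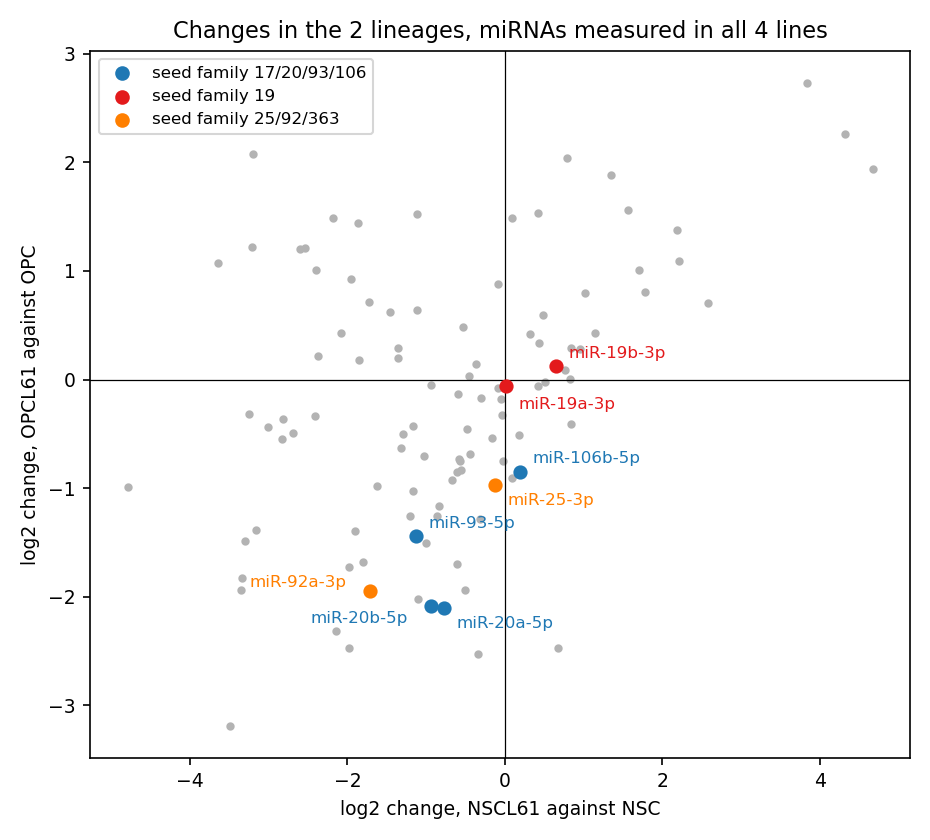
Log2 change in the NSC lineage (x axis) and in the OPC lineage (y axis) of the 105 miRNAs measured in all 4 lines, with the 8 members coloured by seed family and the others in grey. The miR-19 members lie at the upper right of the members, and miR-92a-3p, miR-20a-5p and miR-20b-5p at the lower left.

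A fit over all 4 lines gave the tests that the design allows. limma, with state and lineage as terms, compared the 2 glioma-initiating with the 2 precursor lines over the miRNAs that passed the background flag on 2 or more arrays. The spread left to it is that between lineages, not between cultures. With 1 array per line, that spread is poorly known for any single miRNA. limma therefore takes much of each miRNA's variance from a trend over all miRNAs, and its p-values lean on that trend. Of the 10 members that entered, 0 passed a Benjamini-Hochberg adjusted p of 0.05, against 0.485% of all miRNAs (1 miRNA). miR-17-3p (in NSC and OPC) and miR-18a-5p (in OPC) entered with readings at or near the floor, so their fitted changes are not measured changes. At an unadjusted p under 0.05 there was 1 member, against 24.3% of all. That member was miR-92a-3p, lower in both glioma-initiating lines with a log2 change of −1.83 ± 0.44 (SE) and a limma adjusted p of 0.115. The log2 changes of miR-93-5p, miR-20a-5p and miR-20b-5p were −1.29, −1.44 and −1.51, each with a limma adjusted p of 0.201. Without scaling these turned to 0.53, 0.38 and 0.30, and the change of miR-92a-3p to −0.011. Without scaling, limma passed 1 of the 10 members, against 23 of all miRNAs that entered, so passing was not particular to the members. The member was miR-19b-3p, with a log2 change of 2.20 ± 0.76 and a limma adjusted p of 0.0429. Over all settings the lowest adjusted p of a member in limma ran from 0.0429 to 0.363.

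Which members differed between the 2 precursor lines depended on the scaling. In OPC against NSC, 2 of 9 measured members were higher, miR-106b-5p and miR-25-3p (log2 change 1.18 ± 0.04 and 1.06 ± 0.02), and 0 were lower, where 14% of all 200 miRNAs measured were higher and 11.5% lower. The third member of that cluster, miR-93-5p, was at −0.061 ± 0.027 on the probe used for the levels. It was at 0.48 on its other probe and at 0.21 with the mean over probes. The chromosome 14 members ran from −0.32 for miR-92a-3p to 0.41 for miR-20a-5p. The median of the miR-106b-25 cluster lay 1.31 above that of the miR-17 cluster. Without scaling, 0 members were higher and 2 lower (miR-19b-3p at −1.07 and miR-92a-3p at −1.10), against 6% and 32% of all miRNAs, while miR-106b-5p and miR-25-3p were at 0.39 and 0.27. With normexp, 0 members reached 2-fold.

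Between the 2 glioma-initiating lines, OPCL61 lay below NSCL61 for most members. Of 11 measured members 1 was lower by the 2-fold rule (miR-17-3p) and 0 were higher, where 12.1% of all 256 miRNAs measured were lower and 34.8% higher. The 10 members measured in both lines ran from −1.01 for miR-17-3p to 0.22 for miR-25-3p, with a median of −0.63 against 0.38 over all 178 miRNAs measured in both, and 0 of 10 lay above the latter. The miR-106b-25 cluster again lay above the miR-17 cluster, by 0.95 between the cluster medians, since miR-106b-5p (0.13) and miR-25-3p (0.22) were the 2 members with a positive change. Without scaling these 2 were at −0.93 and −0.84. Without scaling 8 of 11 members were lower and 0 higher, against 39.5% and 15.6% of all miRNAs. In limma the lineage contrast passed 0 of the 10 members and 0% of all miRNAs, and at an unadjusted p under 0.05 it had 0 members against 8.25% of all.

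**Figure D4:**
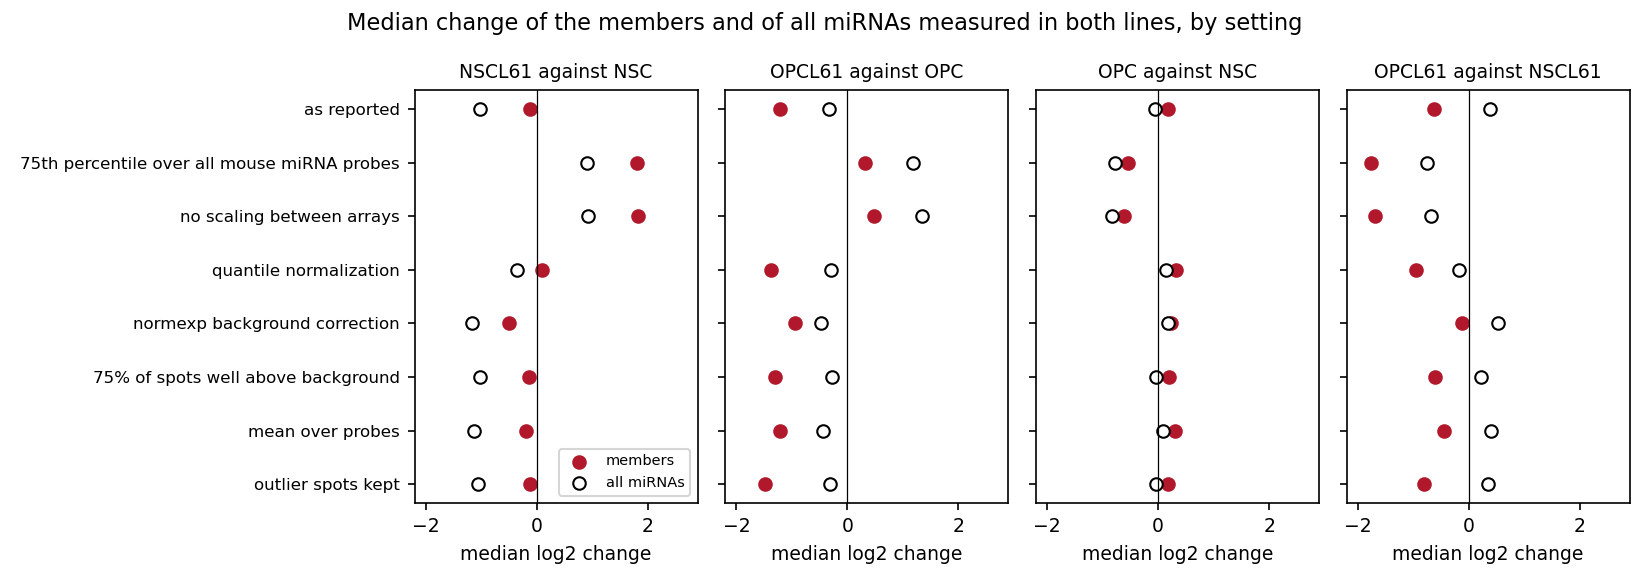
Median log2 change of the members (filled) and of all miRNAs measured in both lines (open) under each processing setting, 1 panel per comparison. Both medians shift together when arrays are scaled over all probes or not at all. Without scaling the members' median in NSCL61 against NSC goes from −0.13 to 1.83, and that of all miRNAs shifts by the same amount. Scaling over all probes is close to no scaling, since its percentile fell at each array's floor.

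Among miRNAs outside the clusters, 5 had the level profile most like the median profile of the 8 members, by the mean absolute difference in centred log2 level over the 4 lines. These were let-7b-5p (0.076), miR-149-5p (0.087), miR-26a-5p (0.095), let-7c-5p (0.15) and miR-361-5p (0.17). Among the members themselves miR-93-5p was nearest to the median profile at 0.24 and miR-19b-3p farthest at 0.67.

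The labelled cell types were checked by marker miRNAs, given here because some of them differ between the same lines. Of 4 neural miRNAs, 4 passed in NSC, 3 in OPC, 3 in NSCL61 and 1 in OPCL61, and their summed level ran from 2637 to 4321 scaled units, with miR-125b-5p at 1741 to 2663 units. The 2 arms of miR-9, a neural progenitor miRNA, were lower in each glioma-initiating line than in its precursor. miR-9-5p was lower by 20.7-fold and miR-9-3p by 65.8-fold in NSCL61, and by at least 25.2-fold and 64.3-fold in OPCL61. Of 3 miRNAs of the oligodendrocyte lineage, 3 passed in NSC, 2 in OPC, 2 in NSCL61 and 1 in OPCL61. Their summed level was 466 scaled units in NSC, 421 in OPC, 1046 in NSCL61 and 743 in OPCL61, lowest in OPC. Most of each sum was miR-23a-3p, at 315, 370, 1028 and 743 units in the same order of lines. miR-219-5p was well above background only in NSC, at 97.8 units, and not in OPC. This list thus did not set OPC apart. Of the 4 fibroblast, pericyte and smooth muscle miRNAs, 0 were measured in NSC, 1 in OPC (summed 47.6 units), 2 in NSCL61 (183) and 1 in OPCL61 (26.5), and of 2 endothelial ones 1 in NSCL61 (9.503). The markers of blood and microglia (4), epithelium (4), muscle (2 on the array) and liver (1) were not well above background in any line. The part of these differences in the members' levels was not tested, and fewer cells with a miRNA cannot be told apart from less of it per cell.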

How the data were processed

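Total RNA of 4 lines was labelled with Cy3 on 4 arrays, and per the submitters' processing notes the scans were quantified by version 10.7.3.1 of Agilent Feature Extraction. Per the file headers, the deposited signal intensity is background-subtracted and not normalized between arrays, and the deposited value table of the whole series holds the same intensity (largest difference 0 over 45364 spots). Outlier spots (1842 to 2365 per array) were left out, values were floored at the lowest spot well above background (16.3 to 18.2 units), and log2 was taken. Replicate spots were averaged, and arrays were scaled by the 75th percentile over 182 probes. The brightest probe stood for a miRNA. A miRNA below background in 1 line was given only a bound, and none where that bound was under 1.

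limma 3.58.1 (R 4.3.3, with state and lineage as terms and trended prior variance) was run over miRNAs that passed the background flag on 2 or more arrays. It was tested on simulated data with changes far larger than those of the members. That test does not show its power at the members' changes. Alternatives changed the scaling, background correction (normexp, offset 50), spot filter (75%), probe rule, outlier spots and prior variance. The depth of an array is not a count; its number of spots and arrays limits the precision. All member arms were named, seed relatives by a fixed list, and the 5 nearest other miRNAs by profile. Members, lists and rules were chosen with earlier results of these data known. The p-values rest on the spread between these 4 samples, largely pooled over all miRNAs by the trend. Nothing says that the samples came from separate cultures. Sequences and positions are from RefSeq, GRCm38.p6.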

Additional observations from a re-analysis of the deposited data

How the results depend on the processing

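Direction depended on the scaling, while differences between members do not depend on the factor of an array. With scaling over all mouse miRNA probes, the members counted as higher and lower were 7 and 0 for NSCL61 against NSC, 2 and 0 for OPCL61 against OPC, 0 and 2 for OPC against NSC, and 0 and 9 for OPCL61 against NSCL61, with medians of 1.80, 0.31, −0.55 and −1.76. Without scaling these were 8 and 0, 3 and 0, 0 and 2, and 0 and 8, with medians of 1.83, 0.47, −0.61 and −1.69. Under these 2 settings miR-92a-3p (0.22 and 0.25) and miR-93-5p (0.80 and 0.83) reversed in NSCL61 against NSC, and miR-93-5p (0.074 and 0.23) in OPCL61 against OPC; by construction these settings differ only in the factor of each array. With quantile normalization NSCL61 against NSC had 1 higher and 1 lower and OPCL61 against NSCL61 4 lower. The share of all miRNAs reaching 2-fold was worked out only for the main scaling and without scaling. Counts of members under the other settings therefore show how the counts moved and are not results about the members. The medians were 0.094, −1.37, 0.32 and −0.96, and the gap between the miR-106b-25 and miR-17 cluster medians was −0.56 in NSCL61 against NSC, 1.15 in OPC against NSC and 0.78 in OPCL61 against NSCL61. With normexp 0 members were higher in OPC against NSC and 0 lower in OPCL61 against NSCL61, where miR-17-3p reversed to 0.082; miR-18a-5p in NSCL61 against NSC turned to −0.40. The medians were −0.50 in NSCL61 against NSC, −0.95 in OPCL61 against OPC and −0.13 in OPCL61 against NSCL61, and the cluster gaps were 0.29, 0.34, 0.79 and 0.64 in the 4 comparisons, the first having been −0.14. With the mean over probes, 1 member was lower in NSCL61 against NSC (cluster gap −0.24) and 0 in OPCL61 against NSCL61 (median −0.45), and the median in OPC against NSC was 0.31. With outlier spots kept, OPCL61 against OPC had a median of −1.49 and a cluster gap of −0.18, and OPCL61 against NSCL61 had 0 members lower, a median of −0.80 and a gap of 0.55. limma without scaling passed 1 member for the glioma-initiating against the precursor lines, where it passed 23 of all miRNAs. The cause of the changes under quantile normalization, normexp, probe averaging and outlier handling was not tested. Of the other values for comparisons, 76 stayed within 1 SD or 1.5 times the count, as did 108 of the values of single members, while 135 moved.

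limma over all mouse miRNAs, without the filter, could not be fitted and was not run. The lineage term in limma pairs each glioma-initiating line with its precursor. No block by replicate number and no leaving out of a replicate was possible, since each line has 1 array and the labels carry no replicate numbers. Signals near the floor leave miR-17-5p, miR-17-3p and miR-18a-5p without a measured change in 1 or more comparisons.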
